A study of Mus musculus with 3 samples.

Results

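The genes of 10 digestive enzymes of the intestinal brush border were examined for open chromatin in fetal mouse gut epithelium with and without the HNF4 factors. They were the disaccharidase genes Lct, Sis, Treh and Mgam, the phosphatase gene Alpi, and the peptidase genes Anpep, Dpp4, Mep1a, Mep1b and Enpep, chosen by name as enzymes of this membrane. Earlier results of these data were known when the genes were chosen. A region of open chromatin was assigned to a gene when it overlapped the gene body or the 50 kb on either side of it. All 10 genes could be placed, and their windows held 39 of the 33564 open regions of the series. No window overlapped that of another of the 10 genes.

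The brush border is the carpet of microvilli on the lumenal face of the enterocyte, and its membrane carries the hydrolases that finish the digestion of sugars, peptides and phosphate esters. In rodents lactase is the disaccharidase of suckling life, and sucrase-isomaltase and trehalase are known to rise towards weaning. HNF4A and HNF4G are paired nuclear receptors that bind DNA in enterocytes and are known as activators of enterocyte genes. Open chromatin at a start site or at a distant element is usual where such factors bind, and a peak by itself does not measure transcription.

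The study used ATAC-seq, in which the transposase Tn5 cuts accessible DNA, on small intestinal epithelium of embryos at stage E16.5, selected by the surface protein EpCAM. The control group was 1 library with the genotype Hnf4gCrispr/+, that is 1 mutated and 1 intact copy of Hnf4g, with no Cre and no floxed Hnf4a in its label. The DKO group was 2 libraries, replicates 1 and 2, with the genotype Shh-Cre; Hnf4af/f; Hnf4gCrispr/Crispr, in which Cre is driven from the Shh gene, active in gut endoderm, and both copies of Hnf4g are mutated. The groups therefore differed in Hnf4a, in the second Hnf4g copy and in the presence of Cre, and all 3 libraries carried at least 1 mutated Hnf4g copy. The labels do not say whether a library came from 1 embryo or a pool.

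The authors deposited 16977 peaks for the control, 18268 for DKO replicate 1 and 26648 for DKO replicate 2, each a window of 601 bp with a whole-number score. Scores have no stated common scale, so each was also given as its percentile rank among the peaks of its own library (100 is the strongest). Sequencing depth is unknown, and a missing peak means that no peak was called there, not that the chromatin was closed. With 1 control against 2 DKO libraries an exact permutation of the labels cannot go below p = 0.333, so no test was made and the DKO replicates served as the measure of replicate spread. Of 5 epithelial marker genes with a start site at hand, Epcam, Cldn3 and Cdx2 had a start-site peak in all 3 libraries, while Krt8 had one in DKO replicate 1 alone and Vil1, the villus protein villin, in DKO replicate 2 alone. Of 3 mesenchymal marker genes (Col3a1, Des, Acta2), only Acta2 had one, in DKO replicate 1. Neither immune marker gene read (Ptprc, Cd3e) had one in any library, and the neuronal gene Elavl4 had one in both DKO libraries and not in the control. The part of these differences between libraries in the results below was not tested.

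The promoters of Sis, Enpep and Alpi are shown because these 3 genes had a start-site peak in the control and in neither DKO library. Each line gives the 250 bases before the annotated start, 5′ to 3′ on the gene's strand, from RefSeq on GRCm38.p6. They come from chr3:72967864-72968113 for Sis, chr3:129332750-129332999 for Enpep and chr1:87101607-87101856 for Alpi, all on the minus strand. Capitals mark matches to the motifs described next.
Sis: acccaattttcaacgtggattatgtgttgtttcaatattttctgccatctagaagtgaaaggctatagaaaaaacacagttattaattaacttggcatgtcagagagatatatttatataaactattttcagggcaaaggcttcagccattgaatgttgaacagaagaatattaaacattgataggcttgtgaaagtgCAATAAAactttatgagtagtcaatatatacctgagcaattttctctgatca
Enpep: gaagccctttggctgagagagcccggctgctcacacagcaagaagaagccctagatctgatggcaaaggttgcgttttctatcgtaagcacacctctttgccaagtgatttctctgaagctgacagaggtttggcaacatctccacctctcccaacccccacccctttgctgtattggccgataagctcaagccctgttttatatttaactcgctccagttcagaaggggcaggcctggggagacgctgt
Alpi: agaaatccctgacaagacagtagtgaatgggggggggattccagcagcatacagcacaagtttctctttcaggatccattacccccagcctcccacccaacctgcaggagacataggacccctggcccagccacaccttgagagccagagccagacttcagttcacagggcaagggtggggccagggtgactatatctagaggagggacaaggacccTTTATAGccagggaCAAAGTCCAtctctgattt
At the offsets used to place the genes, the control peak windows of Sis and Enpep span their start sites. That of Alpi ends 433 bp upstream of its start and lies outside the bases printed. The starts of Sis and Enpep were themselves among the sites that set these offsets. The Sis offset was fixed only to within 155 bp, and the overlap with its start holds for the offset used but not for every offset in that range.

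These 250 bases were searched on both strands for letters typical of factors of this epithelium, in the 9 genes with a promoter in the table (Mep1b was not searched). The HNF4 type, CAAAGNNCA, was found in 2 of the 9 promoters, those of Alpi and Treh, against 5.49% of 32851 promoters. In Alpi the match, CAAAGTCCA, began 19 bases before the start. In Treh it began 71 bases before the start, as TGGACTTTG on the opposite strand. The CDX type, TTTATNG, was found in 3 of 9, those of Sis, Alpi and Dpp4, against 9.81% of all promoters, and the Sis match, CAATAAA on the opposite strand, began 52 bases before the start. The GATA type, AGATAAG, was found in Mgam alone, against 2.74%, and the HNF1 type in none, against 0.371%. No match overlapped another. The Enpep promoter held no match to any of the 4, which says only that these letters are not in this window.

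Across the 10 windows there were 27 control peaks, 13 peaks of DKO replicate 1 and 19 of DKO replicate 2. Per 1000 peaks of each list the control had 1.59, DKO replicate 1 had 0.712 and DKO replicate 2 had 0.713, so the DKO replicates lay close together and the control was above both. In 8 members (Lct, Sis, Mgam, Alpi, Anpep, Mep1a, Mep1b and Enpep) the control had more peaks than either DKO library, although its list was the shortest. The share of all placed genes with that pattern was not counted. Treh had 1 control peak against 2 and 1 in DKO replicates 1 and 2. Dpp4 ran the other way, with 2 control peaks against 3 and 7, the 7 coming from the longest list. Sis, Alpi and Mep1a had control peaks and no DKO peak at all in their windows, a pattern shown by 1.48% of the 16661 placed protein-coding genes with any region in their windows. With flanks of 100 kb the counts were 37, 26 and 38, and the control count no longer exceeded that of DKO replicate 2. These came from lists of 16977, 18268 and 26648 peaks, so as a share of its list the control stayed highest.

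**Figure D1:**
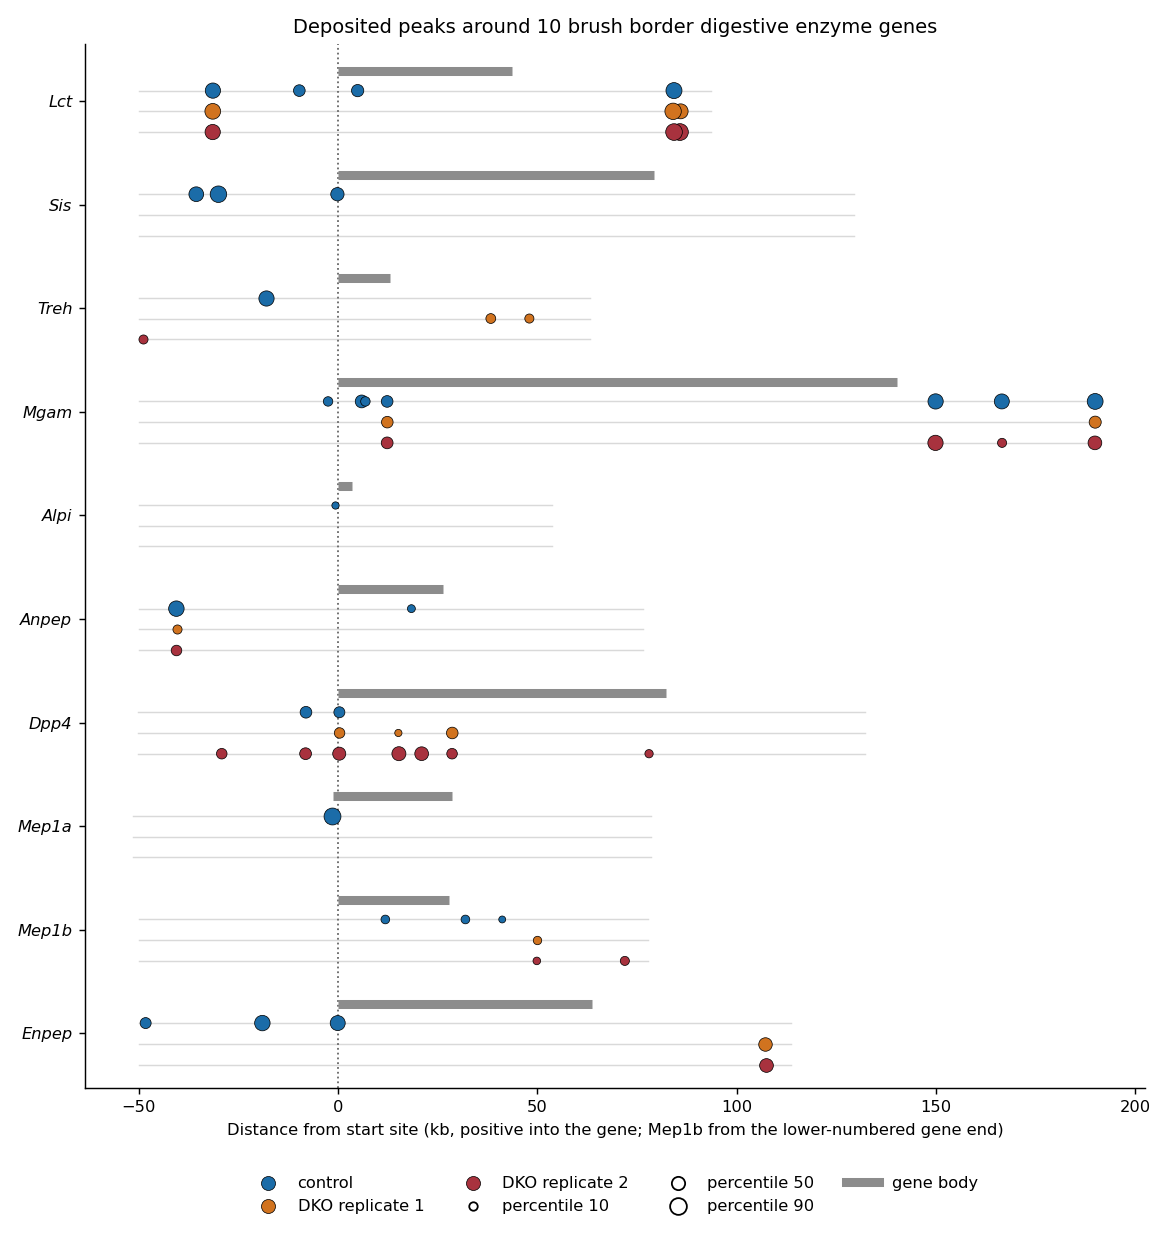
Peaks of the 3 libraries along the windows of the 10 genes. The horizontal axis is the distance in kb from the start site, or for Mep1b, whose start site was not read, from the lower-numbered end of the gene. Each dot is a deposited peak in the control (blue), DKO replicate 1 (orange) or DKO replicate 2 (red), dot size is the percentile rank of the score within its library, and grey bars are gene bodies. The DKO lines of Sis, Alpi and Mep1a are empty, and Dpp4 has 7 peaks in DKO replicate 2, the longest list, against 2 in the control.

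Regions were next sorted by which libraries had a peak in them. Of the 39 regions, 18 were called in the control only, which is 46.2% (Wilson 95% interval 31.6 to 61.4%), against 13.0% of all regions of the series and 12.4% of regions within 50 kb of any placed gene. Regions called in both DKO libraries and not in the control numbered 5, or 12.8% (5.60 to 26.7%), against 16.0% of all regions. Regions called in all 3 libraries numbered 6, or 15.4% (7.25 to 29.7%), against 30.9%. A further 5 regions belonged to DKO replicate 2 alone, against 27.2% of all regions, and 2 to DKO replicate 1 alone, against 6.19%. The control shared 3 regions with DKO replicate 2 (background 5.32%) and none with DKO replicate 1 alone (1.38%). Control-only regions were thus the class in which the members stood furthest above the series, and their share of regions called in both DKO libraries only was near the background. The intervals cover counting error over regions only, and neighbouring regions of a gene are not independent.

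**Figure D2:**
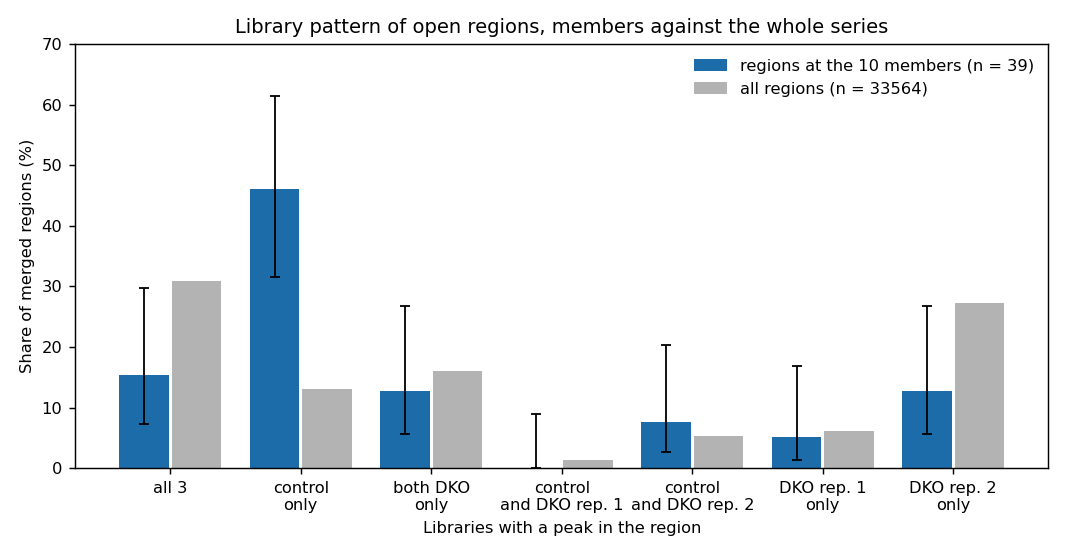
Share of merged regions in each of the 7 library patterns, in percent, for the 39 regions at the members (blue, with Wilson 95% intervals) and for all 33564 regions (grey). The control-only bar of the members, at 46.2%, stands above the 13.0% of the series, while the bars for both DKO libraries only lie at 12.8% and 16.0%.

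Read from the control side, 18 of its 27 regions at the members (66.7%, 47.8 to 81.4%) had no peak in either DKO library, against 25.8% of all control regions. Read from the DKO side, 5 of 11 regions that both DKO lists held had no control peak, against 34.1% of all such regions. Control-only regions occurred in 9 of the 10 windows, all but that of Dpp4, against 32.8% of the placed genes with any region in their windows. Sis, Mgam, Mep1b and Enpep each had 3, and 1.5% of those genes had 3 or more. More control-only than DKO-only regions were found in 9 members, against 18.9% of those genes, and the reverse in 1, Dpp4, against 33.0%. The reverse at Dpp4 depended on the longer DKO lists, as described with that gene below. Gene lengths, and so the widths of the windows, differ between genes (103.6 to 240.3 kb in the members), and the median number of regions per window was 4 in the members and 3 in all placed genes.

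The control-only regions were not only the weakest control peaks. Their control scores had a median rank of 37.5 (range 0.937 to 91.9), and 7 of the 18 (38.9%) ranked at 50 or above, against a median of 29.0 and 28.0% over all 4373 control-only regions. No DKO peak lay within 1 kb of any of the 18. The gap to the nearest DKO peak of either library was 4.86 to 124.7 kb, with a median of 36.6 kb, so none of these calls stood beside a DKO call. Of the 18, 8 lay in a gene body and 10 in the flanks.

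Start sites were read next, as a peak window within 1 kb of the annotated start, in the 9 members for which one was at hand. The control had a start-site peak at 4 members, Sis, Alpi, Dpp4 and Enpep, and each DKO library at 1, Dpp4. Over 15672 placed genes with a start site, 43.1% had a start-site peak in the control, and 49.4% and 51.2% had one in DKO replicates 1 and 2. A start-site peak in the control and in neither DKO library was found at 3 of the 9 members (Sis, Alpi and Enpep), against 1.45% of all genes. Among genes with a control start-site peak, these were 3 of 4 members, against 3.38%. No member showed the reverse, a start-site peak in both DKO libraries and not in the control, against 7.18% of all genes. Lct, Treh, Mgam, Anpep and Mep1a had no start-site peak in any library, against 44.3% of all genes. For Mep1a this holds for the start in the promoter table, as a control-only region spans the 5′ end of its longer gene model. With scores at or above the control median, start-site peaks remained at 2 members in the control (Sis and Enpep), at 0 in DKO replicate 1 and at 1 in DKO replicate 2. A distance of 5 kb in place of 1 kb gave 7 members in the control and 1 in each DKO library. The shares of all genes at this threshold and at this distance were not counted, so these counts have no background beside them.

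The disaccharidase genes held 9 of the 18 control-only regions. Their 4 windows had 15 control peaks, 7 in DKO replicate 1 and 8 in DKO replicate 2. Sis encodes sucrase-isomaltase, which splits sucrose and the branch points of starch fragments. Its window held 3 regions, all called in the control only. The first, on chromosome 3 from 72771623 to 72772223 (mm9, as are all region coordinates that follow), was centred 173 bp upstream of the start with a control score of 21 (rank 50.4). The strongest, from 72801462 to 72802062, lay 30.0 kb upstream with a score of 35 (rank 87.0), and the other, 35.6 kb upstream, scored 25 (rank 65.7). The nearest peaks of DKO replicates 1 and 2 to the start lay 98.3 and 98.2 kb away, so both DKO libraries had no call over the gene or its upstream flank.

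Mgam, for maltase-glucoamylase, which splits glucose from starch fragments, had 7 control peaks, 2 in DKO replicate 1 and 4 in DKO replicate 2. Its 3 control-only regions lay around the start, 2.52 kb upstream and 5.91 and 6.85 kb downstream. The strongest of them, on chromosome 6 from 40584451 to 40585051, scored 20 (rank 45.5), and the others both scored 15 (rank 17.0). A region 12.3 kb into the gene was called in all 3 libraries, with scores of 18, 20 and 18 in the control and DKO replicates 1 and 2 and with ranks of 34.8, 34.0 and 35.8. The region with the highest control rank, from 40768368 to 40769039, lay 49.2 kb beyond the far end of the gene, just 0.765 kb inside the limit of the window. It scored 30, 21 and 23, with ranks of 78.8 in the control and 38.4 and 54.7 in the DKO replicates. A pair of further regions beyond the far end was called in the control and DKO replicate 2, with control scores of 27 and 26 and DKO replicate 2 scores of 30 and 14. Within this window the calls missing from both DKO libraries were those nearest the start site.

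Lct encodes lactase-phlorizin hydrolase, the enzyme of milk sugar. It had 4 control peaks and 3 in each DKO library, and none of them within 1 kb of its start. Its control-only regions lay 4.90 kb into the gene (chromosome 1, 130219604 to 130220204, score 19, rank 40.3) and 9.73 kb upstream (score 18, rank 34.8). The regions shared by all libraries lay at the starts of the neighbouring genes Ubxn4 and Mcm6, within 36 and 41 bp of them. The Ubxn4 region scored 31 in the control and 43 and 44 in the DKO replicates, with ranks of 80.7, 85.7 and 88.8. The Mcm6 region scored 27, 36 and 30, with ranks of 71.6, 77.1 and 71.8. A region 1.65 kb from the Ubxn4 start, from 130138589 to 130139363, was called in both DKO libraries only (scores 31 and 46), and a control peak lay 0.900 kb from it. The regions near Lct itself were therefore called in the control alone, and those called in DKO libraries stood at neighbours.

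Treh encodes trehalase, which splits the sugar of fungi and insects. Its control-only region, on chromosome 9 from 44462954 to 44463554, lay 18.2 kb upstream of the start and scored 27 (rank 71.6). The DKO peaks of this window were weak and were not shared between replicates. DKO replicate 1 had scores of 17 and 16 (ranks 19.6 and 14.4) beyond the far end of the gene, and DKO replicate 2 had a score of 14 (rank 14.2) 48.8 kb upstream.

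Alpi, the intestinal alkaline phosphatase gene, had 1 region in its window, on chromosome 1 from 88998487 to 88999087. It was called in the control only, centred 733 bp upstream of the start, with a score of 12. That score has a rank of 2.96, so this call stood near the lower limit of the control list. The nearest DKO peaks to the start were 65.2 and 65.3 kb away.

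The peptidase genes had 11 control peaks in 5 windows, against 6 and 11 in DKO replicates 1 and 2, and 7 of those 11 peaks of DKO replicate 2 were at Dpp4. Mep1a encodes the alpha subunit of meprin, a metallopeptidase. It carried the highest-ranked control-only region of all 10 members, on chromosome 17 from 43641069 to 43641669, which scored 40 (rank 91.9). It was centred 1.53 kb upstream of the start in the promoter table. A longer RefSeq gene model begins 1370 bp farther upstream, and the region spans that 5′ end, with its centre 162 bp from it. The nearest peaks of DKO replicates 1 and 2 lay 164 and 127 kb from the table's start.

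Enpep encodes glutamyl aminopeptidase, which removes acidic residues from peptide ends. Its start-site region, on chromosome 3 from 129035396 to 129035996, was centred 95 bp upstream of the start and scored 26 in the control (rank 68.8). The strongest of its other control-only regions, from 129054294 to 129054894, lay 19.0 kb upstream with a score of 28 (rank 74.2), and the last lay 48.3 kb upstream with a score of 17 (rank 29.0). The only DKO peaks of the window formed a region 43.2 kb beyond the far end of the gene, from 128928092 to 128928799, with scores of 25 and 23 (ranks 52.6 and 54.7). Just outside the window, 54.9 kb from the gene body, a further region was called in both DKO libraries only, with scores of 40 and 61. Within the window, the calls at the start and upstream of Enpep thus came from the control, and those past its far end from the DKO libraries. Outside the window, the nearest peak of DKO replicate 1 to the start lay 61.0 kb upstream.

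Mep1b, for the beta subunit of meprin, had 3 control-only regions of low rank. Their scores were 14, 14 and 11 (ranks 11.4, 11.4 and 0.937), and 1 of them lay in the gene body, on chromosome 18 from 21242427 to 21243027. A region called in both DKO libraries only lay 21.7 kb from the gene, with scores of 15 and 12 (ranks 9.70 and 4.72), and DKO replicate 2 had a further peak with a score of 14 (rank 14.2). All calls around Mep1b stood in the lowest 15% of their lists, in each library. Its direction of transcription was not used here, so its start site was not read.

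Anpep encodes aminopeptidase N, which trims neutral residues from peptides. Its control-only region lay 18.4 kb into the gene (chromosome 7, 86974476 to 86975076) and was weak, with a score of 13 (rank 6.47). The region called in all libraries, from 87033180 to 87034031, lay 40.4 kb upstream, and its nearest start, 32.0 kb away, was that of Ap3s2. It scored 28 in the control and 16 in each DKO library, with ranks of 74.2, 14.4 and 25.4. The control lay above both DKO replicates there by far more than the replicates lay apart.

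Dpp4, for dipeptidyl peptidase 4, which removes dipeptides, was the exception among the members in the lists as deposited. Its start-site region, on chromosome 2 from 62249469 to 62250153, was called in all 3 libraries, scoring 17 in the control and 18 and 21 in the DKO replicates. The ranks were 29.0, 24.7 and 47.9, so the control lay between the DKO replicates. In the gene body, 15.2 and 28.6 kb downstream of the start, were 2 regions called in both DKO libraries only. The first scored 13 and 24 (ranks 2.57 and 57.7), and the second 20 and 16 (ranks 34.0 and 25.4), in DKO replicates 1 and 2. Cutting each list to its 16977 strongest peaks removes the peaks of rank 2.57 and 25.4. Neither region is then called in both DKO libraries, so this reversal depended on the longer DKO lists. DKO replicate 2 alone had 3 more regions, with scores of 13 to 23, and 1 region 8.11 kb upstream was shared by the control and DKO replicate 2, each with a score of 18.

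**Figure D3:**
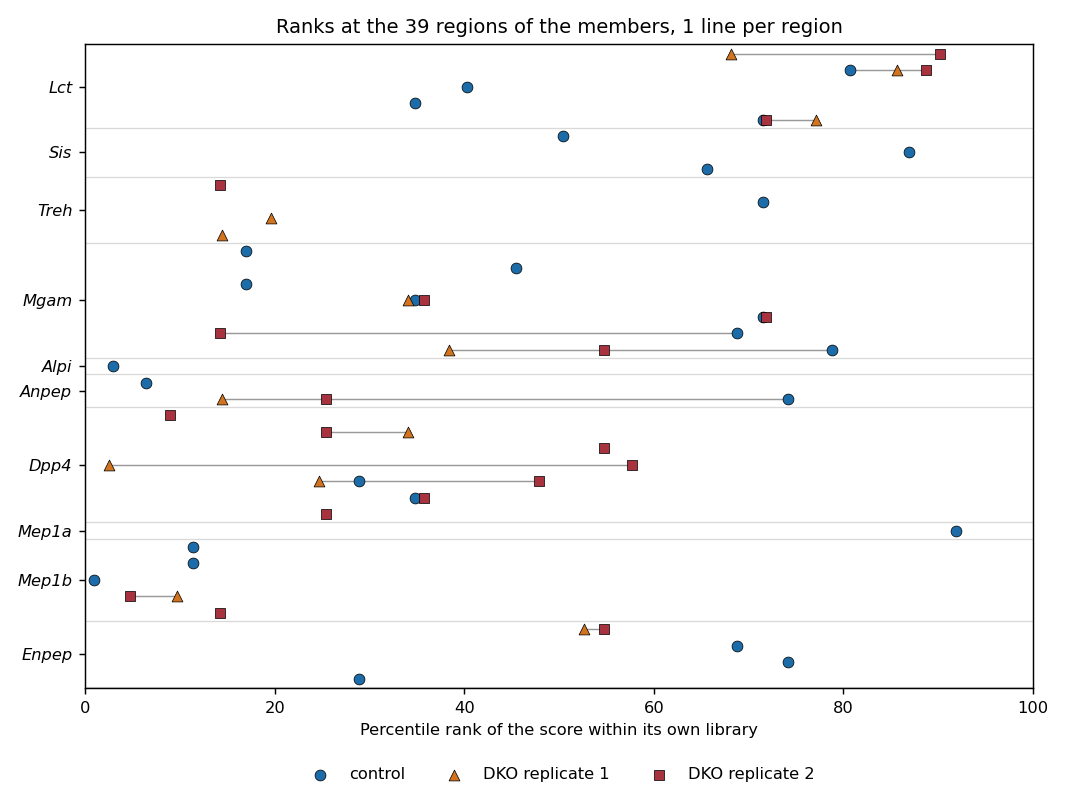
Percentile rank of the score within its own library at each of the 39 regions, 1 horizontal line per region, grouped by member. Circles are the control, triangles DKO replicate 1 and squares DKO replicate 2, and a symbol is missing where no peak was called. Lone circles run up to a rank of 91.9 at Mep1a and 87.0 at Sis, and at the shared Anpep region the circle stands at 74.2 against 14.4 and 25.4.

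At the 6 regions called in all 3 libraries, at Lct, Mgam, Anpep and Dpp4, the control rank minus the mean DKO rank had a median of -1.52 points and ran from -7.32 to 54.3. The sign of this median was not stable, as it was 10.4 points with lists of equal length, 2.51 without DKO replicate 2 and -10.7 with scores at or above the control median. Over all 10355 such regions the median was -5.05 points. The difference between the DKO replicates had a standard deviation of 10.5 points over the 6 regions and of 18.7 points over all 10355. The Anpep region, at 54.3 points, was the 1 region of the 6 in which the control ranked at least 25 points above both DKO libraries, against 2.63% of all shared regions. None ranked at least 25 points below both, against 12.3%. At 4 of the 6 regions the control rank minus the mean DKO rank was -7.32 to -0.123 points. At the far Mgam region it was 32.3 points and at the Anpep region 54.3. The shares of all 10355 shared regions with differences of these sizes were not counted.

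The other hydrolases of this membrane were read in the same way from a list of 15 genes, of which 13 could be placed. Among them 4 had more control-only than DKO-only regions in their windows (Mme, Enpp7, Akp3 and Alppl2), 2 had the reverse (Naaladl1 and Dpep1), 4 had equal numbers and 3 had no region at all. The shares over placed genes with a region, given above, were 18.9% and 33.0%. Akp3 and Alppl2 are alkaline phosphatase genes that neighbour Alpi, and their windows hold the same control-only region as the Alpi window, so they are not separate cases. At none of the 11 with a start site at hand did the control have a start-site peak, and Mme, for neprilysin, had one in DKO replicate 2 alone, with a score of 15 (rank 19.8). The share of all genes with a control start-site peak was 43.1%, as given above.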

How the data were processed

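Single-end reads of 75 bp from 20000 cells per library were used by the authors. The submitters' processing notes name FastQC 0.11.3, Bowtie2 2.2.6, deepTools 2.4.2, MACS 1.4.1 and the build mm9, with no parameters. The caller's threshold, duplicate handling and any shift for the transposase are not given in the sources used here. What the deposited score measures is not given, and a pileup height, if it is one, would rise with depth. Depth is unknown.

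Peaks overlapping by at least 1 bp were merged into regions. The gene table was on GRCm38, so each gene was moved by the single offset, within 8 Mb, that put most start sites of genes up to 2.5 Mb on each side under a peak. Where the best offset did not hold at least 2 times as many start sites as the next, genes up to 5 Mb and then 0.5 Mb away were used, a fallback chosen after the lists had been seen and needed by Sis, Dpp4 and Mep1b. For the members 11 to 50 of 35 to 111 start sites fell under peaks, the next best offset held 4 to 11, and start sites on both sides of each gene were under peaks. The best count held for offsets up to 13 to 155 bp on either side of the one used. That range does not measure the error at the gene itself, whose own start was among the sites counted. On the lower-numbered side the nearest start under a peak lay 3028663 bp from Sis and 1372854 bp from Enpep. On the chromosome of Mep1b, where start sites were not read, both ends of genes were used. In all, 19105 of 21896 protein-coding genes (87.3%) were placed. For members, the text describes each region within 1 kb of a start site and the highest-ranked region of the classes all libraries, control only and both DKO only, and gives the other regions by score. The members and lists were chosen with earlier results of these data known. Placement and merging were tested on simulated data. Python 3.11.15, numpy 2.4.6, pandas 2.3.3 and scipy 1.17.1 were used.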

Additional observations from a re-analysis of the deposited data

How the results depend on the processing

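Control-only regions outnumbered DKO-only regions at the members under each of the 9 alternatives, and the order of the series was the reverse in all of those that change the lists or the merging except equal list lengths. With the same number of peaks in each library (16977), the members had 20 control-only regions (57.1%, against 20.7% of the series) and 2 called in both DKO libraries only, DKO replicate 2 had 10 peaks in the windows, and the median rank difference at the 5 shared regions was 10.4 points in place of -1.52. With a score threshold at the control median 9 of 18 regions were control-only (against 10.2% of the series), with 2 called in both DKO libraries only and 3 shared, at which the median rank difference was -10.7 points. Peaks in the windows then numbered 13 in the control and 5 and 9 in the DKO replicates, and start-site peaks were left at 2, 0 and 1 members, Alpi being among those lost. A flank of 10 kb left 12 control-only regions of 20, with 2 called in both DKO libraries only and 2 in all, and 16, 4 and 8 peaks. A flank of 100 kb gave 22 of 65, with 11 called in both DKO libraries only and 10 in all. It gave 26 and 38 peaks in DKO replicates 1 and 2 against 37 in the control. The excess of control peaks was thus lost against DKO replicate 2 in count, though not as a share of each list. Leaving out DKO replicate 1 or 2 gave 18 to 21 control-only regions, 7 to 10 DKO-only regions and a median rank difference of -0.24 to 2.51 points. Leaving out a library redefines the classes for the whole series too, and the series shares were not counted for it. A start-site distance of 5 kb gave 7 members in the control, against 1 in each DKO library, and the 5′ end of the gene model, an alternative added after the data were seen, gave 5, with Mep1a. Shares over all genes were not counted for these start-site alternatives. Of the 69 values under the alternatives, 47 stayed within 1.5 times the reported count or within the spread between DKO replicates. Some of the values given above are among these 47. No paired analysis was possible because a single, unnumbered control library cannot be paired with the DKO replicates. All values rest on 1 control library, and a region without a peak could not be told from one just short of the calling threshold.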
